A study of Homo sapiens with 12 samples.

Results

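The integrated stress response begins with kinases that phosphorylate the translation factor eIF2, and the 10 genes described here encode its inputs in HT29 cells together with 1 secreted output. They comprised the 4 eIF2 kinases (EIF2AK1, EIF2AK2, EIF2AK3 and EIF2AK4), the eIF2 alpha subunit EIF2S1, the eIF2B subunit EIF2B4, the mitochondrial relay genes OMA1 and DELE1, the phosphatase subunit PPP1R15B and the hormone gene GDF15. The genes were chosen by name with earlier results of these data known. Each of the 10 symbols matched 1 gene ID among the 60675 in the deposited table. All 10 passed the filter on low counts that left 15374 genes for testing.

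When eIF2 alpha is phosphorylated, it blocks its own exchange factor eIF2B, most translation slows, and the mRNA of the transcription factor ATF4 is translated more. Each kinase answers to its own stress: HRI (EIF2AK1) to lack of heme, PKR (EIF2AK2) to double-stranded RNA, PERK (EIF2AK3) to unfolded protein in the endoplasmic reticulum and GCN2 (EIF2AK4) to uncharged tRNA. Mitochondrial stress reaches HRI through the inner membrane protease OMA1, which cleaves DELE1 so that a fragment leaves the mitochondria and activates the kinase. These steps act mostly on proteins, whereas the libraries measured RNA alone.

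HT29 is an established cell line from a human colorectal adenocarcinoma, and the study asked how strongly an extract of *Aconitum carmichaeli* Debeaux (ACD) changes the transcriptome of an intestinal line. Cells were kept for 24 h with a water extract of ACD at 20 µg/mL, 100 µg/mL or 500 µg/mL (low, medium and high dose), or with the vehicle, labelled 2% DMSO. By the study's methods, the extract was dissolved in phosphate-buffered saline with the same share of DMSO. That share belongs to the solution added to the growth medium, so the share that reached the cells was lower. Each group had 3 libraries from this 1 line, and the labels do not say whether they came from separate cultures, so p-values measure the spread between these libraries, which may be technical.

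The libraries held between 15941255 and 33866644 expected counts. Of 12 markers of colorectal epithelium, 11 were above 1 CPM (counts per 1000000, with library sizes scaled by TMM) in every library, and CDX1 ranged from 0.923 to 1.54 CPM. Of 12 markers of the astrocytoma line used elsewhere in the study, 4 were at 0 in all libraries, and the list summed to between 1.2 and 3.98 CPM. The blood cell markers PTPRC, CD3E and HBB reached at most 0.123 CPM, but CD68 and ITGAM passed the test at the high dose, with means of 10.7 and 2.29 CPM there against 7.23 and 1.39 CPM in vehicle, and their part in the results was not tested. Genes of the mitochondrial genome took 14.0% to 16.6% of the counts at the high dose and 7.41% to 11% elsewhere. Within them MT-RNR1, a ribosomal RNA of mitochondria, took 0.104% to 0.138% in vehicle and low-dose libraries, 0.297% to 0.345% at the medium dose and 2.73% to 2.89% at the high dose. No member's call or sign changed when library sizes were computed without the mitochondrial genes.

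High-dose replicate 2 stood apart from its group. The SD over genes of its log2 difference from the other high-dose libraries was 0.502, against 0.102 to 0.293 in the other 11 libraries. With genes of a mean over 5 CPM split into 5 classes of transcript length, its median log2 difference went from 0.42 in the shortest class to -0.36 in the longest. The high-dose fold change of each member and the high-dose counts or medians of the gene lists against vehicle are therefore given with and without this library. Without it, 18.7% of 15674 genes passed the adjusted p against vehicle at the high dose (6.87% at medium and 2.03% at low), and the median log2 fold change of all genes at the high dose was -0.011. List genes named for that fit were chosen after their values were seen.

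The RNA of 1 of the 10 genes passed the test. GDF15, which encodes a stress-induced hormone of the TGF-beta family, rose 1.61-fold at the high dose and 1.36-fold at the medium dose. None of the genes for the kinases, eIF2, eIF2B, OMA1, DELE1 or PPP1R15B passed at any dose when all libraries were kept, and their fitted log2 fold changes lay between -0.24 and 0.29 at the high dose. PPP1R15B, a subunit of the phosphatase that removes the phosphate from eIF2 alpha, passed at the high dose without high-dose replicate 2.

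**Figure D1:**
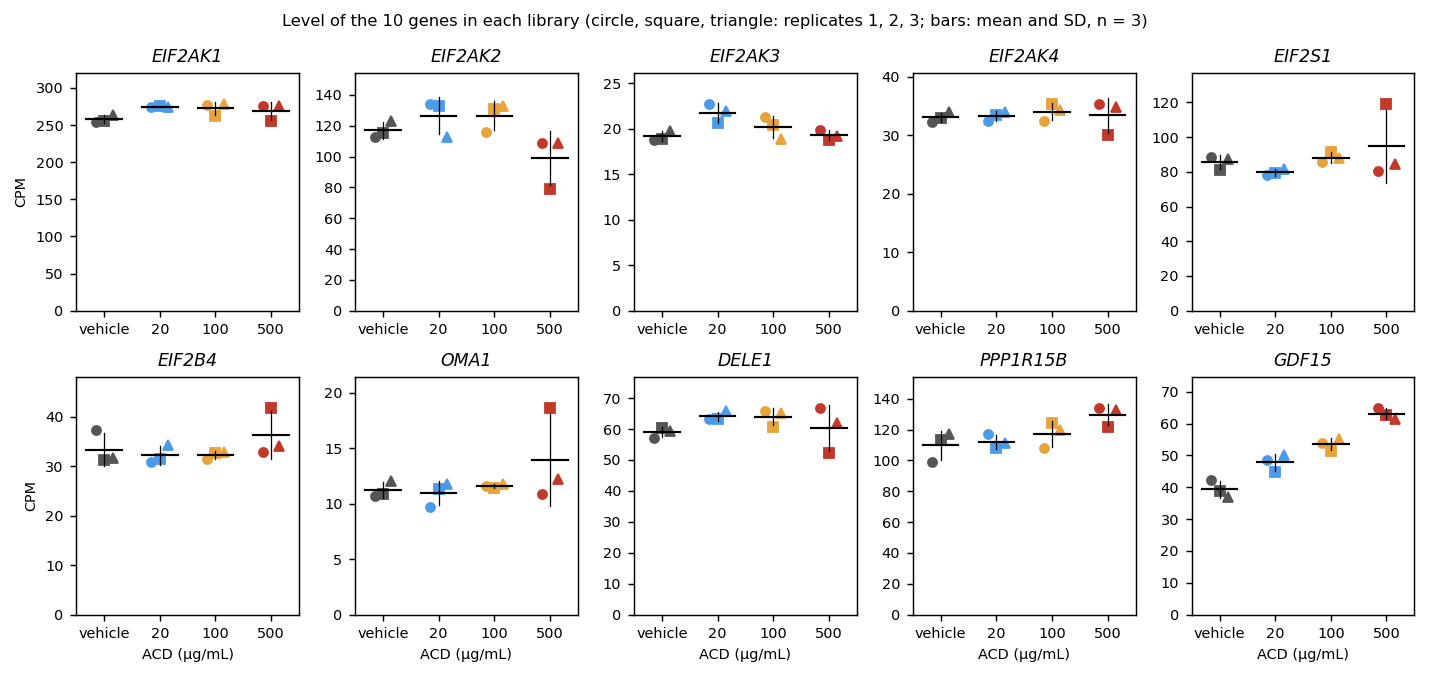
Level of each of the 10 genes in CPM (linear axis from 0) in the 12 libraries, by ACD concentration. Points are libraries, with a circle, square and triangle for replicates 1, 2 and 3, and bars give the mean and SD of 3 libraries. GDF15 steps up from 36.8 to 42.3 CPM in vehicle to 61.6 to 64.9 CPM at the high dose, and the square of high-dose replicate 2 lies away from its group for EIF2AK2, EIF2S1, EIF2B4, OMA1 and DELE1.

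GDF15 signals to the brainstem receptor GFRAL, with RET as its partner, and its gene is known to be induced in the integrated stress response and by p53. Its promoter is shown because it is the member whose RNA changed. The sequence holds the 250 bases before the RefSeq gene start (GRCh38.p14, chr19:18385908-18386157, plus strand), with capitals for the letters TATAAA, whose first base lies 29 bases before the start:

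GDF15: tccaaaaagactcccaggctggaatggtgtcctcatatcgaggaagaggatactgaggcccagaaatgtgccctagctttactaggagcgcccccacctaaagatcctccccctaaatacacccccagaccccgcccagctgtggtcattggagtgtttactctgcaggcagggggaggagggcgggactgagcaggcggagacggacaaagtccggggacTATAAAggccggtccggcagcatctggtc

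The gene itself is annotated at chr19:18374731-18389176 on the plus strand, where the GENCODE annotation also holds transcripts that begin upstream of that start. TATAAA occurred on either strand in 11.5% of the 35116 RefSeq promoters, which span 250 bases before and 50 bases after a gene start, and in 1 of the 9 members with an entry there. The composite element of C/EBP and ATF proteins, searched as TGATGNAA on both strands (a search that shares no match with TATAAA), was not in the GDF15 window. It was in 3.62% of all these promoters. Counted by gene, it was in a promoter of 1 of the 9 members, PPP1R15B, and of 4.46% of the 27305 genes in the table.

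GDF15 levels followed the dose library by library. In the vehicle libraries it stood at 42.3, 38.8 and 36.8 CPM, at the low dose at 48.5, 44.8 and 50.2 CPM, at the medium dose at 53.8, 51.5 and 55.3 CPM and at the high dose at 64.9, 62.8 and 61.6 CPM. No 2 groups overlapped, and each step in dose lay above the one before. Of all genes tested, 35, or 0.228%, rose through the 4 groups without overlap, and GDF15 was among them. These values rested on 768 to 2004 expected counts per library.

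Against vehicle, the log2 fold change of GDF15 was 0.68 ± 0.073 (SE, n = 3 per group) at the high dose, with a 95% interval of 0.53 to 0.84 and an adjusted p of 0.000162 in edgeR's quasi-likelihood test with Benjamini-Hochberg adjustment. It passed both the adjusted p threshold of 0.05 and a fold change over 1.5, which 2.93% of genes did at this dose. Without high-dose replicate 2 the log2 fold change was 0.69 (adjusted p = 2.2e-06). By p alone GDF15 ranked 66 among the genes tested, and it passed the adjusted p in all 12 fits that left out 1 library.

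At the medium dose its log2 fold change was 0.45 ± 0.073 (edgeR adjusted p = 0.0103), under the 1.5-fold limit that, with the adjusted p, 0.676% of genes passed there. This call was lost when vehicle replicate 2, vehicle replicate 3, medium replicate 1 or medium replicate 3 was left out, with log2 fold changes of 0.44, 0.41, 0.44 and 0.43 and adjusted p of 0.0709, 0.0571, 0.0609 and 0.0700 in edgeR. At the low dose the log2 fold change was 0.28 ± 0.073 and did not pass (edgeR adjusted p = 0.237, unadjusted p = 0.00206), although all 3 low-dose libraries lay above all 3 vehicle libraries. It passed at the low dose without high-dose replicate 2 (log2 fold change 0.29, edgeR adjusted p = 0.0270), where 2.03% of genes passed against 0.124% with all libraries. It also passed there in DESeq2 on all libraries (0.29, adjusted p = 0.0215), but not in DESeq2 on the 2 groups alone. The comparisons with vehicle share the same 3 vehicle libraries.

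The doses were also set against each other. GDF15 was 1.32-fold higher at the high than at the low dose (log2 difference 0.40 ± 0.072, edgeR adjusted p = 0.00942), and 2.98% of genes passed the adjusted p in that comparison. Without low replicate 2 its adjusted p was 0.0583. Between the high and medium doses the difference was 0.24 on the log2 scale and did not pass (95% interval 0.080 to 0.39, edgeR adjusted p = 0.243), where 0.891% of genes passed. In a trend test over the rank of the dose, GDF15 rose by 0.22 ± 0.023 on the log2 scale per step (edgeR adjusted p = 6.84e-05, rank 23), and 5.74% of genes passed this test.

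The 10 genes can be read against all genes by their counts. At the high dose 1 of 10 passed the adjusted p, against 5.77% of all genes tested, and 1 of 10 rose and none fell, against 2.82% and 2.95%. At the medium dose 1 of 10 passed and rose, against 1.01% passing and 0.572% rising. At the low dose none passed in edgeR, against 0.124%, and 1 passed in DESeq2 on all libraries but none in DESeq2 on the 2 groups alone. In edgeR, 2 members had an unadjusted p under 0.05 at the low dose, beside 1223 of the 15374 genes tested. The median log2 fold change of the members was 0.089, 0.076 and 0.059 at the high, medium and low doses, beside 0.0052, -0.0095 and -0.0014 over all genes.

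Libraries of a dose and vehicle did not overlap for 3 members at the high dose (EIF2AK2, PPP1R15B and GDF15), 2 at the medium dose (DELE1 and GDF15) and 4 at the low dose (EIF2AK1, EIF2AK3, DELE1 and GDF15). Over all genes this held for 22.0%, 28.7% and 21.0%, so such separation alone was common in this table.

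**Figure D2:**
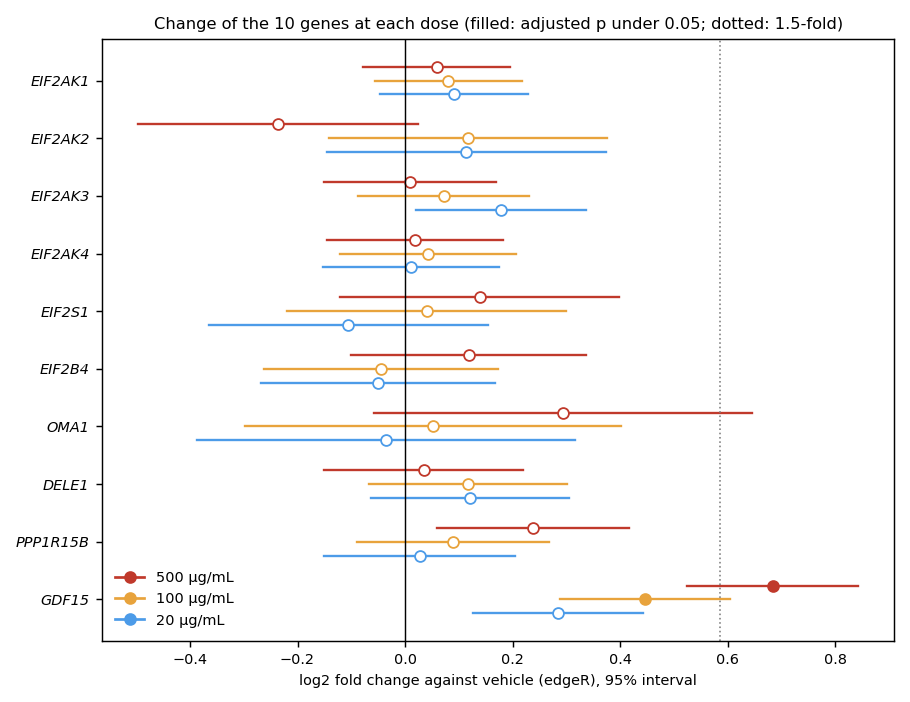
Log2 fold change against vehicle from edgeR for the 10 genes at 500, 100 and 20 µg/mL, with 95% intervals as lines (n = 3 libraries per group). Filled points have an adjusted p under 0.05 and the dotted line marks 1.5-fold: only GDF15 at 500 µg/mL (0.68) and 100 µg/mL (0.45) is filled.

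HRI, encoded by EIF2AK1 (chr7:6022247-6059175, minus strand), is the heme-sensing kinase and the end of the OMA1-DELE1 relay. Its RNA stood at 254, 255 and 264 CPM in vehicle, 274, 275 and 274 CPM at the low dose, 277, 262 and 278 CPM at the medium dose and 275, 255 and 276 CPM at the high dose. The low-dose libraries lay just above the vehicle range, and the 2 higher doses overlapped it. All 3 log2 fold changes were small, at 0.091, 0.080 and 0.059 from the low to the high dose, and none passed (edgeR adjusted p from 0.666 to 0.781). The 95% interval at the high dose, -0.078 to 0.20, leaves out any change of 1.5-fold, and without high-dose replicate 2 the value was 0.096 (-0.015 to 0.21). AIMP2, on the opposite strand, overlaps 9.69% of its exon bases, and the strand setting of the counting is not given in the sources used here.

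PKR, encoded by EIF2AK2 (chr2:37099210-37157522, minus strand), binds double-stranded RNA and is itself an interferon-induced gene. It measured 113, 115 and 123 CPM in vehicle, 134, 133 and 113 CPM at the low dose, 116, 131 and 133 CPM at the medium dose and 109, 78.9 and 109 CPM at the high dose. High-dose libraries lay below vehicle, narrowly in replicates 1 and 3 and farther in replicate 2. The log2 fold change there was -0.24 ± 0.12 (edgeR adjusted p = 0.306), and -0.098 (adjusted p = 0.393) without replicate 2, whose EIF2AK2 level was 0.47 lower on the log2 scale than the mean of the other 2 high-dose libraries. Against the low and medium doses the high-dose difference was -0.35 on the log2 scale in both cases (edgeR adjusted p = 0.168 and 0.318), and -0.21 and -0.22 without that library.

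PERK (EIF2AK3, chr2:88556741-88691518, minus strand) sits in the endoplasmic reticulum membrane. It was the least abundant member for its length, with 18.8, 18.9 and 19.8 CPM in vehicle, 22.7, 20.6 and 21.9 CPM at the low dose, 21.3, 20.4 and 18.9 CPM at the medium dose and 19.9, 18.8 and 19.2 CPM at the high dose. Its low-dose libraries lay above vehicle, and those of the high dose lay within or at the edge of the vehicle range. The low-dose log2 fold change of 0.18 ± 0.073 had an unadjusted p of 0.0302 and did not pass after adjustment (edgeR adjusted p = 0.585). At the high dose it was 0.0093, with a 95% interval of -0.15 to 0.17, and 0.028 (-0.13 to 0.19) without replicate 2.

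GCN2 (EIF2AK4, chr15:39934115-40035591, plus strand) senses uncharged tRNA with its coactivator GCN1. In vehicle EIF2AK4 was at 32.3, 32.9 and 33.9 CPM, and at the low, medium and high doses at 32.4, 33.5 and 34.0, at 32.4, 35.3 and 34.3 and at 35.3, 30.0 and 34.9 CPM. Every dose overlapped vehicle. The log2 fold changes of 0.011, 0.043 and 0.019 did not pass (edgeR adjusted p from 0.869 to 0.983), and the high-dose interval of -0.15 to 0.18 held no 1.5-fold change. Replicate 2 was the lowest high-dose library, and without it the high-dose value was 0.087 (-0.047 to 0.22).

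Around the kinases, the list of 20 regulators held 1 gene that passed at the high dose, a share of 1 in 20 that is near the 5.77% of all genes. IMPACT, an inhibitor of GCN2 that competes for GCN1, rose by 0.39 on the log2 scale, from 13.9 ± 2.03 to 18.3 ± 1.03 CPM (SD, n = 3, edgeR adjusted p = 0.0427), and the list's median was 0.081. The IMPACT call held in 2 of the 12 fits that left out 1 library, those without vehicle replicate 2 or high replicate 2. Without the latter IMPACT and GCN1 rose, TARBP2, a partner of PKR and Dicer, fell and the median was 0.071. In that fit 18.7% of all genes passed.

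None of the 15 tested genes of the double-stranded RNA response beside PKR passed at the high dose in edgeR, none had an unadjusted p under 0.05, and the list's median log2 fold change was -0.22 (-0.23 without replicate 2). At the low dose the median was 0.33, with 14 of 15 values above 0 and 5 at an unadjusted p under 0.05, though none passed in edgeR. At the medium dose the median was 0.19, and none passed in edgeR, with 1 at an unadjusted p under 0.05. Over the 15374 genes tested, an unadjusted p under 0.05 was found for 3089, 1797 and 1223 at the high, medium and low doses. Between the high and low doses 3 of the 15 passed, all lower at the high dose, against 2.98% of all genes. They were DHX58, RIGI and OAS1, which sense viral RNA and are themselves induced by interferon, with log2 differences of -0.81, -0.60 and -0.60 (edgeR adjusted p = 0.0303, 0.0329 and 0.0485). With 1 library left out, DHX58 passed in 7 of 12 fits, RIGI in 3 and OAS1 in 2 (edgeR adjusted p up to 0.136, 0.176 and 0.225). Without high replicate 2, DHX58 and RIGI passed and OAS1 did not. With all libraries, the median of the list between the high and low doses was -0.46, beside 0.0092 over all genes. The other lists were compared between these doses too. Of 28 tested genes induced through ATF4 and CHOP, 20 passed as higher and 2 as lower at the high dose. Passing as higher were also 5 of 18 heme genes, 2 of 17 endoplasmic reticulum stress genes and 1 of 9 TGF-beta ligands. No gene passed in the remaining lists.

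Of 17 genes of the other endoplasmic reticulum stress arms beside PERK, 2 rose and 1 fell at the high dose. Over all genes 2.82% rose and 2.95% fell, and the median of the list was 0.070. HERPUD1, a part of the degradation machinery of the endoplasmic reticulum, rose by 0.43, XBP1, the transcription factor spliced by IRE1, rose by 0.39, and CRELD2, a secreted chaperone-like protein, changed by -0.35 on the log2 scale (edgeR adjusted p = 0.00234, 0.0329 and 0.0475). HERPUD1 passed in all 12 fits with 1 library left out, XBP1 in 3, those without a high-dose library, and CRELD2 in 1, without high replicate 2. In that fit, where 18.7% of all genes passed, HERPUD1, XBP1, HYOU1 and ERN1 rose, CRELD2 and SDF2L1 fell and the median was 0.054.

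Heme genes beside HRI gave 5 of 18 that rose and none that fell at the high dose, against 2.82% and 2.95% of all genes. The median log2 fold change of the list was 0.20. Without high-dose replicate 2, where 18.7% of all genes passed, the same 5 and SLC48A1, a heme transporter, rose and the median was 0.068. ALAS1, the first enzyme of heme synthesis, went from 45.6 ± 2.55 to 83.0 ± 6.53 CPM (log2 fold change 0.86, edgeR adjusted p = 2.9e-05), and FECH, the last enzyme, from 15.7 ± 1.27 to 22.4 ± 0.676 CPM (0.52, adjusted p = 0.00386). HMOX1, which breaks heme down, rose from 9.10 ± 0.715 to 19.4 ± 2.72 CPM (1.09), and the ferritin genes FTL and FTH1 rose by 0.58 and 0.45 on the log2 scale. At the medium dose ALAS1 alone passed (0.41, edgeR adjusted p = 0.0195), but not without vehicle replicate 1 or 2 or any 1 of the 3 medium libraries (adjusted p up to 0.130). At the high dose 4 of the 5 passed whichever library was left out, while FTH1 did not without vehicle replicate 2 or 3 (adjusted p up to 0.0609), and 2 of 18 passed when vehicle and high dose were fitted alone. So genes of both heme synthesis and heme breakdown rose, while the RNA of the heme-sensing kinase did not pass.

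eIF2 brings the initiator tRNA to the ribosome, and EIF2S1 (chr14:67360328-67386516, plus strand) encodes the alpha subunit that all 4 kinases phosphorylate. Its levels were 88.7, 81.2 and 87.6 CPM in vehicle, 78.0, 79.3 and 81.9 CPM at the low dose, 85.5, 91.4 and 87.8 CPM at the medium dose and 80.6, 119 and 84.6 CPM at the high dose. One library, high-dose replicate 2, lay far above the other 11, and the rest of the high dose lay within or just below vehicle. With it the log2 fold change was 0.14 ± 0.12 (edgeR adjusted p = 0.580), and without it -0.051 (adjusted p = 0.579), so the sign rested on this library.

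EIF2B4 (chr2:27364352-27370338, minus strand) encodes the delta subunit of eIF2B, the exchange factor that phosphorylated eIF2 blocks. Values were 37.3, 31.3 and 31.6 CPM in vehicle, 30.9, 31.4 and 34.3 CPM at the low dose, 31.4, 32.6 and 32.9 CPM at the medium dose and 33, 41.8 and 34.2 CPM at the high dose. Vehicle replicate 1 and high-dose replicate 2 were the 2 high libraries, and every dose overlapped vehicle, while the high-dose libraries lay just above those of the medium dose. The log2 fold change at the high dose was 0.12 ± 0.10 (edgeR adjusted p = 0.572) and 0.017 without high-dose replicate 2.

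The wider list of 9 genes for eIF2, eIF2B and EIF5 had none that passed at any dose in edgeR. At the high dose 2 of the 9 had an unadjusted p under 0.05, beside 3089 of the 15374 genes tested. At the other doses none of the 9 did. The high-dose log2 fold changes of the list ran from 0.069 to 0.32 with a median of 0.14, beside 0.0052 for all genes. All 9 were above 0, but that rested on high-dose replicate 2: without it 7 of 9 were above 0, the values ran from -0.105 to 0.169 and the median was 0.019, beside -0.011 for all genes.

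OMA1 (chr1:58415384-58546802, minus strand) is a zinc metalloprotease of the inner mitochondrial membrane that becomes active when the membrane potential falls. It was read at 10.7, 10.9 and 12 CPM in vehicle, 9.72, 11.3 and 11.8 CPM at the low dose, 11.6, 11.4 and 11.8 CPM at the medium dose and 10.9, 18.6 and 12.2 CPM at the high dose, from 194 to 397 expected counts per library. Only high-dose replicate 2 was high, and the other 11 libraries lay between 9.72 and 12.2 CPM. The fitted log2 fold change of 0.29 ± 0.16 (edgeR adjusted p = 0.349) became 0.057 ± 0.098 (adjusted p = 0.724) without it. DAB1, annotated on the same strand, overlaps 6.91% of OMA1's exon bases.

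DELE1 (chr5:141923855-141942047, plus strand) encodes the protein that carries the mitochondrial signal to HRI. Vehicle libraries held 57.1, 60.2 and 59.5 CPM, low-dose libraries 63.1, 63.4 and 65.9 CPM, medium-dose libraries 65.9, 60.8 and 65.1 CPM and high-dose libraries 66.8, 52.2 and 61.9 CPM. All low-dose and medium-dose libraries lay above vehicle, as did 2 of 3 at the high dose, with replicate 2 the lowest of the 12. Log2 fold changes of 0.12, 0.12 and 0.035 from the low to the high dose did not pass (edgeR adjusted p = 0.784, 0.652 and 0.875). Without high-dose replicate 2 the high-dose value was 0.12 ± 0.060, with a 95% interval of -0.0028 to 0.25 and an adjusted p of 0.160.

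Beside OMA1 and DELE1, the list of inner membrane proteases and partners had 25 genes tested, of which 2 rose and 1 fell at the high dose. Over all genes 2.82% rose and 2.95% fell, and the median of the list was 0.11. OPA1, the fusion protein that OMA1 cleaves, rose by 0.28 on the log2 scale (95.8 ± 5.83 to 116 ± 1.69 CPM, edgeR adjusted p = 0.0196). HSPA9, the matrix HSP70, rose by 0.26 (366 ± 1.48 to 439 ± 11.8 CPM, adjusted p = 0.0385), and SPG7, a subunit of the m-AAA protease, fell by 0.37 (59.9 ± 2.16 to 46.4 ± 4.23 CPM, adjusted p = 0.0145). With 1 library left out, SPG7 did not pass without vehicle replicate 1 or 2 (adjusted p up to 0.0704), OPA1 did not without vehicle replicate 1 or 2 or high replicate 3 (up to 0.0810), and HSPA9 passed only without low replicate 1, low replicate 3 or high replicate 2. Without high replicate 2 these 3 and LONP1 and CHCHD2 passed, of which OPA1, HSPA9 and LONP1 rose. In that fit 18.7% of all genes passed, and the list's median was -0.004.

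**Figure D3:**
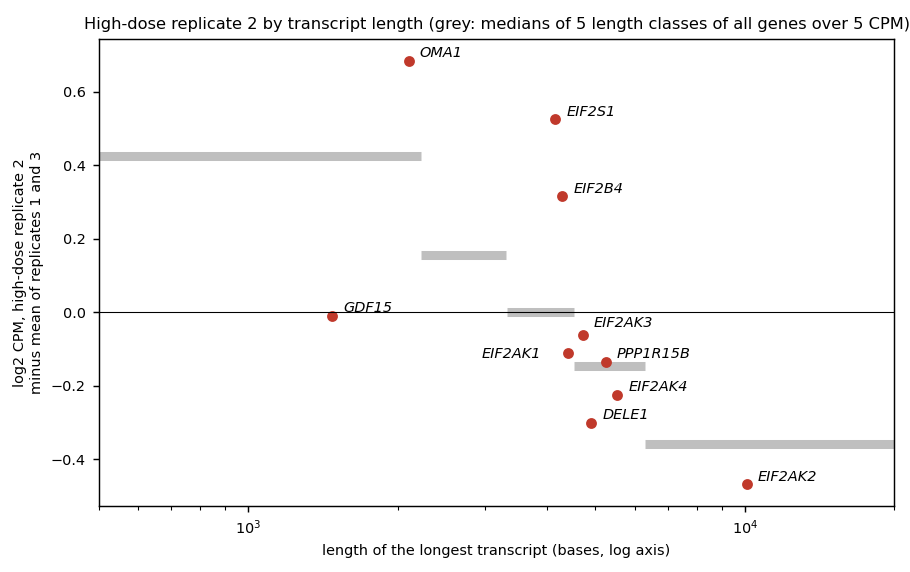
Log2 CPM of high-dose replicate 2 minus the mean of high-dose replicates 1 and 3 (vertical axis) against the length of the longest transcript in bases (log axis), for the 10 genes as points. Grey bars are medians of genes with a mean over 5 CPM in 5 classes of transcript length, drawn within 500 to 20000 bases. OMA1 (0.68), EIF2S1 (0.52) and EIF2B4 (0.32) lie above the bar at their length, EIF2AK2 (-0.47) and DELE1 (-0.30) below theirs, and GDF15 (-0.010), in the shortest class, lies near 0.

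PPP1R15B, also known as CReP (chr1:204396492-204411887, minus strand), brings protein phosphatase 1 to eIF2 alpha in unstressed cells, while its relative PPP1R15A (GADD34) is the stress-induced form. PPP1R15B RNA stood at 99.3, 113 and 117 CPM in vehicle, 117, 108 and 111 CPM at the low dose, 108, 124 and 120 CPM at the medium dose and 134, 122 and 133 CPM at the high dose. The 3 high-dose libraries lay above vehicle, while low-dose and medium-dose libraries overlapped it.

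At the high dose the log2 fold change of PPP1R15B was 0.24 ± 0.082, with a 95% interval of 0.060 to 0.42, an unadjusted p of 0.0130 and an edgeR adjusted p of 0.122. Without high-dose replicate 2 it was 0.28 ± 0.072 (adjusted p = 0.0120) and passed, in a fit in which 18.7% of 15674 genes passed. The trend over dose gave 0.078 ± 0.025 on the log2 scale per step (edgeR adjusted p = 0.0873), and 0.085 without that library (adjusted p = 0.0179), where 17.5% of genes passed. A lncRNA on the opposite strand overlaps 5.60% of its exon bases.

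PPP1R15A rose by 0.42 on the log2 scale at the high dose, from 28.4 ± 3.51 to 37.7 ± 4.90 CPM (SD, n = 3, edgeR adjusted p = 0.0476). It was the 1 gene of the 5 for the phosphatase that passed, against 5.77% of all genes, and the 3 catalytic subunits did not. The call held in 3 of 12 fits with 1 library left out (without vehicle replicate 1, low replicate 3 or high replicate 2), and the adjusted p reached 0.170 in the others. Without high replicate 2, where 18.7% of all genes passed, PPP1R15A (0.52) and PPP1R15B (0.28) rose. The median of the 5 genes was then -0.00035, beside 0.15 with all libraries. The difference between PPP1R15A (0.42 ± 0.11) and PPP1R15B (0.24 ± 0.082) in log2 fold change was not tested.

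The genes that ATF4 and its partner CHOP are known to induce lie downstream of these inputs. Of 30 on the list, 28 were tested, and 21 rose and 2 fell at the high dose, against 2.82% and 2.95% of all genes. Like the other lists, this list was chosen with earlier results of these data known, so the contrast is not independent evidence. The median log2 fold change was 0.86, against 0.0052 for all genes. At the medium dose only SLC7A11, the cystine transporter, passed (0.61, edgeR adjusted p = 0.0106). At the low dose none did in edgeR, with 1 gene at an unadjusted p under 0.05, beside 1223 of the 15374 genes tested. Without high-dose replicate 2, where 18.7% of all genes passed, the high-dose counts were also 21 and 2 and the median was 0.76. Of the 23 genes, 21 passed whichever library was left out. The exceptions were PPP1R15A, which passed in 3 of 12 such fits, and CCNG2. The latter did not pass without vehicle replicate 2, vehicle replicate 3 or high replicate 3 (edgeR adjusted p up to 0.113). With vehicle and high dose fitted alone, 15 of 28 passed. SLC7A11 at the medium dose did not pass without vehicle replicate 1, vehicle replicate 2 or medium replicate 2 (edgeR adjusted p up to 0.0696), and 5 genes of the list passed there without high replicate 2, where 6.87% of all genes did.

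The smallest p-values were those of DDIT4, an inhibitor of mTORC1, from 19.8 ± 0.722 to 70.2 ± 5.30 CPM, CHAC1, which degrades glutathione, from 2.59 ± 0.473 to 20.0 ± 2.27 CPM, and PSAT1 of serine synthesis, from 100 ± 3.16 to 272 ± 25.7 CPM (SD, n = 3). Their log2 fold changes were 1.83, 2.97 and 1.44. ASNS, asparagine synthetase, and TRIB3, a pseudokinase that binds ATF4, rose by 2.08 and 1.07 on the log2 scale. Chosen after their values were seen, ATF4 itself rose by 0.58 (251 ± 18.1 to 376 ± 39.6 CPM, edgeR adjusted p = 0.00146), and KLHL24 and CCNG2 were the 2 that fell, by 0.61 and 0.34. GDF15 passed at both the medium and the high dose, as SLC7A11 did, and the difference in dose response between GDF15 and the list was not tested.

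**Figure D4:**
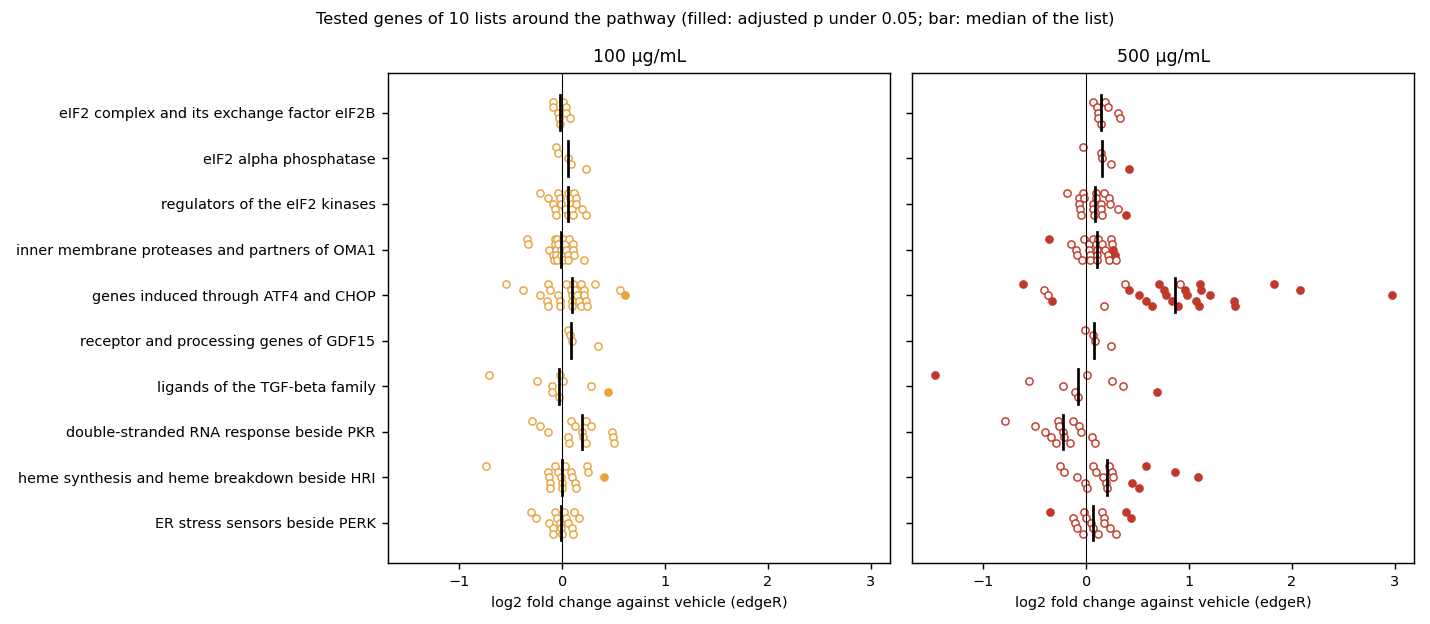
Log2 fold change against vehicle from edgeR of the tested genes of 10 lists around the pathway, at 100 µg/mL (left) and 500 µg/mL (right), n = 3 libraries per group. Each point is a gene, filled where the adjusted p is under 0.05, and the black bar is the list's median, which is 0.86 for the genes induced through ATF4 and CHOP at 500 µg/mL and within 0.22 of 0 for the other 9 lists.

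The element TGATGNAA was in promoters of 8 of the 27 genes of that list with a RefSeq entry, against 4.46% of all genes in the table. Of those 8, 7 rose at the high dose and FGF21 was too low to test (0.135 CPM at most). Over the whole list 21 of 28 tested genes rose, and whether rising went with the element was not tested. The following windows show PPP1R15B, 3 of the 5 list genes with the same letters and 2 with another base at N, chosen as examples after their values were seen, with GRCh38.p14 positions and the strand on which the element (capitals) is read.

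PPP1R15B (chr1:204412026-204412055, minus strand): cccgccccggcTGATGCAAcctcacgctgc

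CEBPG (chr19:33374060-33374089, plus strand): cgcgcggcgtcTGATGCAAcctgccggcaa

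JDP2 (chr14:75427995-75428024, plus strand): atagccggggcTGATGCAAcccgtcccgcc

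CHAC1 (chr15:40953251-40953280, minus strand): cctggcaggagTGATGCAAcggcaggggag

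ASNS (chr7:97872458-97872487, minus strand): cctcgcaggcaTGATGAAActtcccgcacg

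ATF3 (chr1:212565205-212565234, plus strand): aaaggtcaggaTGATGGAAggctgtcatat

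PPP1R15B shares all 8 letters of the element with CEBPG, JDP2, CHAC1, CARS1 and FGF21, the last of which was not tested. Their log2 fold changes at the high dose covered a wide range: CARS1, a cysteinyl-tRNA synthetase, rose by 0.64, CEBPG, a C/EBP family partner of ATF4, rose by 0.52, JDP2, a repressor of AP-1, by 1.10 and CHAC1 by 2.97 on the log2 scale, beside 0.24 for PPP1R15B, which did not pass with all libraries. A match is a description of the letters and not a test of binding.

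GDF15 was read against its family and its partners. Of 33 ligands of the TGF-beta family, 9 were abundant enough to test, and GDF15 was the 1 that rose at the high dose with all libraries. TGFB3 was the 1 that fell, from 1.13 ± 0.406 to 0.395 ± 0.0325 CPM (edgeR adjusted p = 0.0496), a call that held in 2 of the 12 fits that left out 1 library, without medium replicate 3 or high replicate 2. Without high replicate 2, TGFB1 and GDF11 rose too, of 10 ligands tested, in a fit in which 18.7% of all genes passed. The receptor GFRAL had 0 counts in every library and RET reached at most 0.0344 CPM. None of the 4 tested genes for proteases that can process GDF15 passed at any dose in edgeR. Of the 4, 1 had an unadjusted p under 0.05 at the high and at the medium dose. Over the 15374 genes tested, 3089 and 1797 did at these doses. PCSK5 passed at the high dose without high replicate 2 (0.30, edgeR adjusted p = 0.00738).

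The genes whose profile lay nearest to GDF15 were found over the 12 libraries by the root mean square difference of log2 ratios to the vehicle mean, among 13140 genes with a mean of at least 1 CPM. They were CDKN1A, the cell cycle inhibitor p21 (0.079), VWA7 (0.093), FGF19, a secreted hormone (0.093), LIF, a cytokine of the interleukin-6 family (0.11), and ABCG1, a cholesterol transporter (0.11). CDKN1A means were 15.1, 18.5, 19.9 and 22.5 CPM from vehicle to the high dose, and those of FGF19 58.0, 71.2, 85.8 and 98.1 CPM. All 5 passed at the high dose, with log2 fold changes of 0.58 to 0.76, as genes this close to GDF15 would have to lie near its value. None was on the ATF4 and CHOP list, and the other 9 members lay at 0.33 (PPP1R15B) to 0.53 (EIF2AK2) from GDF15.

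Per length, the members spanned a wide range in vehicle. With the union of annotated exons as length, EIF2AK1 was highest at 46.9 ± 1.01 CPM per kb (SD, n = 3), followed by GDF15 at 18.8 ± 1.32, EIF2S1 at 16.1 ± 0.764 and PPP1R15B at 11.8 ± 1.01. EIF2AK2 at 10.6 ± 0.521 and PPP1R15B had overlapping libraries, and no other neighbours in this order did. DELE1 (9.82 ± 0.269), EIF2B4 (6.43 ± 0.648), OMA1 (3.01 ± 0.191), EIF2AK4 (2.76 ± 0.066) and EIF2AK3 (0.928 ± 0.0262) followed in CPM per kb. With the longest transcript as length, 3 pairs of neighbours changed places. PPP1R15B (20.9 CPM per kb) came before EIF2S1 (20.7) and DELE1 (12) before EIF2AK2 (11.6), both with overlapping libraries, and EIF2AK4 (5.96) before OMA1 (5.31), without overlap. Among the kinases the order was therefore HRI, PKR, GCN2 and PERK, and it was the same with both lengths, at 58.5, 11.6, 5.96 and 4.06 CPM per kb of the longest transcript. Bulk levels cannot tell fewer cells with a transcript from less of it per cell.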

How the data were processed

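The data were 12 mRNA libraries of HT29 cells, made with a directional kit and sequenced as paired ends. Per the submitters' notes, the authors checked reads with FastQC 0.11.9, trimmed them with Trim Galore 0.6.5, aligned them to GRCh38 with STAR 2.7.3a and estimated expression with RSEM 1.3.3. The study's methods give other releases of Trim Galore and STAR, annotation release 84, and do not name the strand setting of RSEM. The deposited values are RSEM expected counts per gene, not normalized, rounded here to whole numbers. The titles and treatment field name ACD, whereas a longer note kept with the libraries describes an extract of Poria cocos. Groups follow the titles. The other cell line and wortmannin were not analysed here.

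All 12 libraries entered 1 fit, in edgeR 4.0.16 under R 4.3.3, of the quasi-likelihood model with robust estimation and 4 groups as terms, after filterByExpr and TMM scaling. The Benjamini-Hochberg adjustment covered the 15374 genes tested in each comparison. Calls needed an adjusted p under 0.05, and where stated a fold change over 1.5. DESeq2 1.42.0 was an alternative, as were other filters, scalings, a replicate block and leaving out each library. CPM used TMM-scaled library sizes and log2 CPM a prior count of 2. The test was first run on simulated data. No 2 libraries were duplicates. Depth limits the precision of each value.

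Coordinates and lengths come from GENCODE 44 (GRCh38), which held 93.2% of the gene IDs, and promoter sequences from RefSeq (GRCh38.p14), where 9 of the 10 members had an entry. The 10 members, the lists of 176 symbols in all (1 unmatched, TMBIM5) and the markers were chosen with earlier results of these data known. All members are named, as are up to 5 genes per list with an adjusted p under 0.05 at the high dose and the smallest p, and the 5 genes nearest to GDF15. Genes with a promoter match, DHX58, RIGI, OAS1, SLC7A11, ATF4, KLHL24 and CCNG2 were added after their values were seen. A further marker fixed for the check of cell types is not reported here.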

Additional observations from a re-analysis of the deposited data

How the results depend on the processing

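Among the 30 log2 fold changes of the members (10 genes at 3 doses), the 3 of GDF15 kept their sign in all 20 alternatives, and GDF15 at the high dose passed in every one (0.65 to 0.74, adjusted p at most 0.0219). The medium-dose call was lost without vehicle replicate 2 or 3 or medium replicate 1 or 3. The number of members passing was 1 to 2 at the high dose (2 without high replicate 2), 0 to 1 at the medium dose and 0 to 1 at the low dose over the fits that left out 1 library, and 1 at the low dose in DESeq2 on all libraries. Sign changed for EIF2AK3 at the high dose with at least 10 counts in every library (-0.0019), and otherwise only where 1 library was left out, in 9 of the 30 values in all, none of which had passed. Those leave-one-out fits ranged from -0.012 to 0.042 for EIF2AK3, -0.020 to 0.087 for EIF2AK4, -0.051 to 0.24 for EIF2S1 and -0.043 to 0.12 for DELE1 at the high dose, from -0.085 to 0.039 for EIF2B4 at the medium dose, and from -0.0039 to 0.029 for EIF2AK4, -0.098 to 0.034 for EIF2B4, -0.092 to 0.043 for OMA1 and -0.041 to 0.075 for PPP1R15B at the low dose.

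Over all genes, counts past both thresholds depended more on the processing. At the high dose 451 genes became 172 and 299 in edgeR and DESeq2 on the 2 groups alone, 887 with no minimum fold change and 310 to 768 with 1 library left out. At the medium dose 104 became 191, 164 and 52 to 249, and at the low dose 17 became 51, 70 and 10 to 109, with 50 in DESeq2 on all libraries and 34 with no filter. Between the high and low doses 243 became 87 on the 2 groups alone, 458 with no minimum fold change and 160 to 335, and between the high and medium doses 75 became 10, 137 and 44 to 100. The trend test, called by adjusted p alone, gave 882, 1397 in DESeq2 and 452 to 2744. The highest of each of these ranges came without high replicate 2. The cause was not tested. The remaining alternatives moved no count by over 1.5 times.

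Of the ATF4 and CHOP list, 23 genes passed at the high dose, 15 in edgeR on the 2 groups alone, and of the heme list 5 and 2. A leave-one-out fit assumes that a group left with 2 libraries varies like the others. Replicate numbers were not used to pair the libraries in the main fit. After removal of group means, same-numbered libraries correlated from -0.5 to 0.37, and 5 of 18 pairs were over 0.1. Pairs with different numbers were not compared, so these values cannot decide whether the libraries were paired. With the replicate block, 379 genes passed at the high dose, 75 at the medium and 17 at the low dose, 592 in the trend, and no member's call changed. Depth limits OMA1 most, with 194 expected counts in its lowest library.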
